A study of Homo sapiens with 12 samples.

Results

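ATF4, DDIT3 (which encodes the protein CHOP) and 8 genes that act with them or under them were followed in 2 human neuroblastoma cell lines given STM2457, a small-molecule inhibitor of the RNA m6A methyltransferase METTL3. The set holds 10 of the 19923 genes in the count files. It has 6 bZIP transcription factors, which are ATF4, DDIT3, ATF3, ATF5, CEBPB and CEBPG, and 4 other genes, which are TRIB3, CHAC1, NUPR1 and PPP1R15A. All 10 were present in the files and all 10 passed the filter on low counts in each line. SK-N-BE2 and NGP are both MYCN-amplified and labelled wild type. SK-N-BE2 cells received 12 µM STM2457 and NGP cells 1 µM, each for 6 days, and control cells of both lines received the solvent DMSO for the same time. Each of the 4 groups had 3 libraries, made from polyadenylated RNA. The genes were chosen by name for their place in the pathway, but they were selected on these libraries too, because their lower levels under STM2457 in both lines were already known. Their responses to STM2457, and the difference of those responses between the lines, are therefore given as a description without a test. The difference between the untreated lines was not what they were chosen for, and it was tested.

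The integrated stress response starts with kinases that phosphorylate the translation factor eIF2 when amino acids are short, unfolded proteins gather in the endoplasmic reticulum, haem is low or a virus is present. Phosphorylated eIF2 slows protein synthesis in general but lets the ATF4 mRNA be translated. ATF4 binds DNA as a dimer with other bZIP proteins, C/EBP family members among them, at C/EBP-ATF response elements, and it induces DDIT3, ATF3, TRIB3, CHAC1 and many genes of amino acid supply. PPP1R15A closes the loop by bringing a phosphatase to eIF2. Tumour cells are known to use the pathway to keep up amino acid supply and protein folding.

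Sequences around the transcription starts of the 10 genes are shown first, because a shared DNA element is the feature through which ATF4 and the C/EBP factors are known to act. Windows of GRCh38 from 1000 bases before to 500 bases after the GENCODE 44 canonical start were searched on both strands for exact matches. The letters TTGCATCA are one form of the C/EBP-ATF response element, and their reverse complement TGATGCAA is also one of the forms covered by the second pattern searched, TGATGNAA. The third was TGACGTCA, the cyclic AMP response element. TTGCATCA was found for 6 of the 10 genes, which were DDIT3, ATF3, TRIB3, CHAC1, CEBPG and NUPR1, and in 2.63% of the 20033 windows of protein-coding genes. TGATGNAA was found for the same 6 genes and in 13.9% of the windows. TGACGTCA was found for PPP1R15A alone among the 10 and in 3.98% of the windows. Each line below gives 30 bases 5′ to 3′ on the strand of the gene, with the matched element in capitals.
DDIT3: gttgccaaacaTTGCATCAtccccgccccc
ATF3 upstream: cctccccgaacTTGCATCAccagtgccccc
ATF3 proximal: tataaaaggggTGATGCAAcgctctccaag
TRIB3: ttagctccggtTTGCATCAcccggaccggg
CHAC1: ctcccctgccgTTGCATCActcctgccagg
CEBPG: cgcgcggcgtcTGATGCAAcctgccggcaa
NUPR1: aaggggccagaTTGCATCAgacagggcctg
PPP1R15A: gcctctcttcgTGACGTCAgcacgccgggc

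In coordinates of GRCh38 and gene models of GENCODE 44, the DDIT3 stretch is chr12:57520802-57520831 on the minus strand and lies in an intron of a longer transcript, with the element beginning 306 bases before the canonical start. The upstream ATF3 stretch, chr1:212608547-212608576, lies in an intron of a longer transcript, and the proximal one, chr1:212608729-212608758, overlaps an annotated exon and ends just before the canonical start. The CHAC1 stretch is chr15:40953251-40953280, in an exon of a transcript that starts further upstream. The CEBPG stretch is chr19:33374060-33374089, in an intron. The NUPR1 stretch is chr16:28539047-28539076 on the minus strand, 91 bases before its canonical start, outside the GENCODE 44 gene but inside the longer gene interval of the deposited files, which use GENCODE 33. The PPP1R15A stretch is chr19:48872352-48872381, in an exon of GENCODE 44 and before the start of the gene interval in the deposited files. TRIB3 carried its 30 bases 3 times, at a spacing of 33 bases, in an exon, and the first copy is chr20:380881-380910. The shorter promoters of the RefSeq table for GRCh38.p14 run from 250 bases before to 50 after a start. There 9 of the 10 genes had an entry, with 18 promoters between them. TTGCATCA was found for 2 of these genes, CHAC1 and CEBPG, in a single promoter each, against 0.866% of all 35116 promoters. A match is a description of these letters only, and no binding was measured here.

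**Figure D1:**
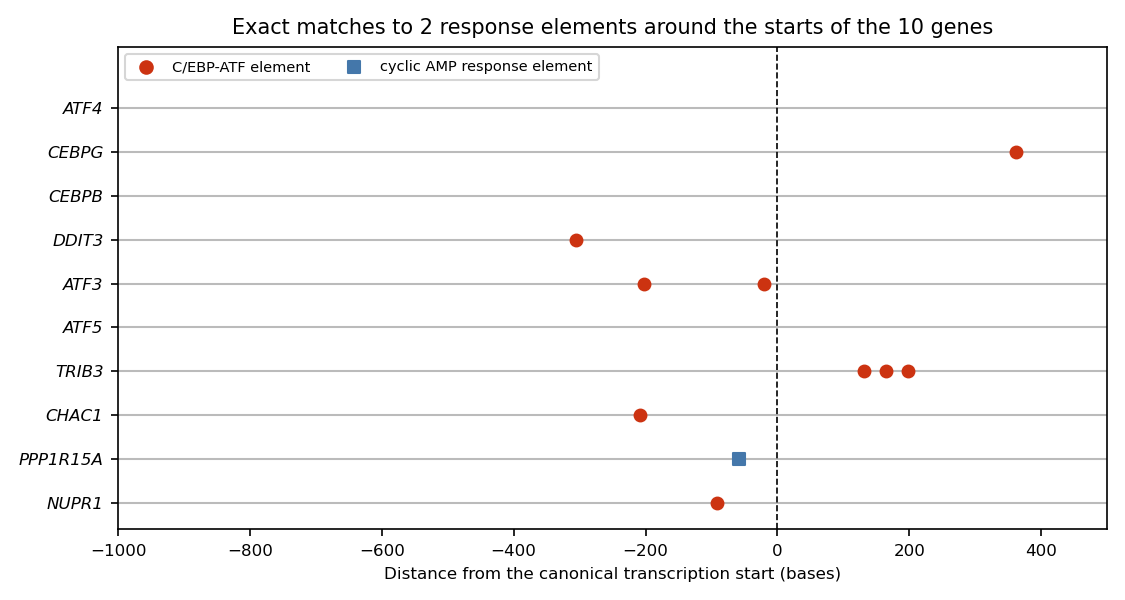
Exact matches to the C/EBP-ATF element (circles; TTGCATCA on either strand) and to the cyclic AMP response element (square; TGACGTCA) plotted against distance in bases from the canonical transcription start, with 1 row per gene. Circles lie in 6 rows, the TRIB3 row has 3 evenly spaced ones after the start, and the rows of ATF4, CEBPB and ATF5 hold no mark.

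The 12 libraries held between 47242379 and 58159937 reads in genes. METTL3 RNA, which codes for the target of the drug, was higher with STM2457, from 54.0 ± 3.26 to 79.5 ± 1.43 CPM (counts scaled to library size by TMM; mean ± SD, n = 3) in SK-N-BE2 and from 40.4 ± 3.59 to 77.7 ± 2.46 CPM in NGP. The edgeR log2 fold changes were 0.52 (SE 0.08, adjusted p = 0.000106) and 0.92 (SE 0.11, adjusted p = 0.000300). Of 10 markers of adrenergic neuroblastoma, 9 had a mean of 1 CPM or more in each group, and TH, which encodes tyrosine hydroxylase, was at 174 to 264 CPM in SK-N-BE2 and at 0.156 to 1.13 CPM in NGP. The summed level of 5 fibroblast markers was higher with STM2457, ranging in SK-N-BE2 over 105 to 120.2 CPM with DMSO and 191 to 205 CPM with the drug, and in NGP over 56.8 to 69.8 CPM and 276 to 309 CPM. COL1A2 was under 1 CPM in every group, and the part of these markers in the results was not tested. Leukocyte markers summed to at most 1.77 CPM in any library. The files name 1 sequencing run per line, so the effects of line, of dose and of run cannot be told apart where the lines are compared. In bulk RNA, fewer cells expressing a gene and less of its RNA per cell cannot be told apart. The labels do not say that replicates were separate cultures, so p-values measure only the spread between these libraries.

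All 10 genes were lower with STM2457 in both lines. In every case the 3 treated libraries lay under the 3 DMSO libraries of the same line. For scale, edgeR's quasi-likelihood test at an adjusted p under 0.05 was run across all genes, of which 27.8% were called lower and 26.9% higher in SK-N-BE2, 22.2% lower and 19.4% higher in NGP, and 10.8% of the genes tested in both lines were called lower in both. Libraries with no overlap and the treated ones lower made up 29.0% of genes in SK-N-BE2 and 26.2% in NGP. All 10 members are among the genes lower in both lines, but they were chosen on this contrast, so nothing is read from that count. The median log2 fold change of the 10 was -3.21 in SK-N-BE2 and -3.12 in NGP, against -0.02 and -0.03 over all genes tested. In each line 8 of the 10 kept under 20% of their mean level in DMSO, and ATF4 and CEBPG were the exceptions in both.

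**Figure D2:**
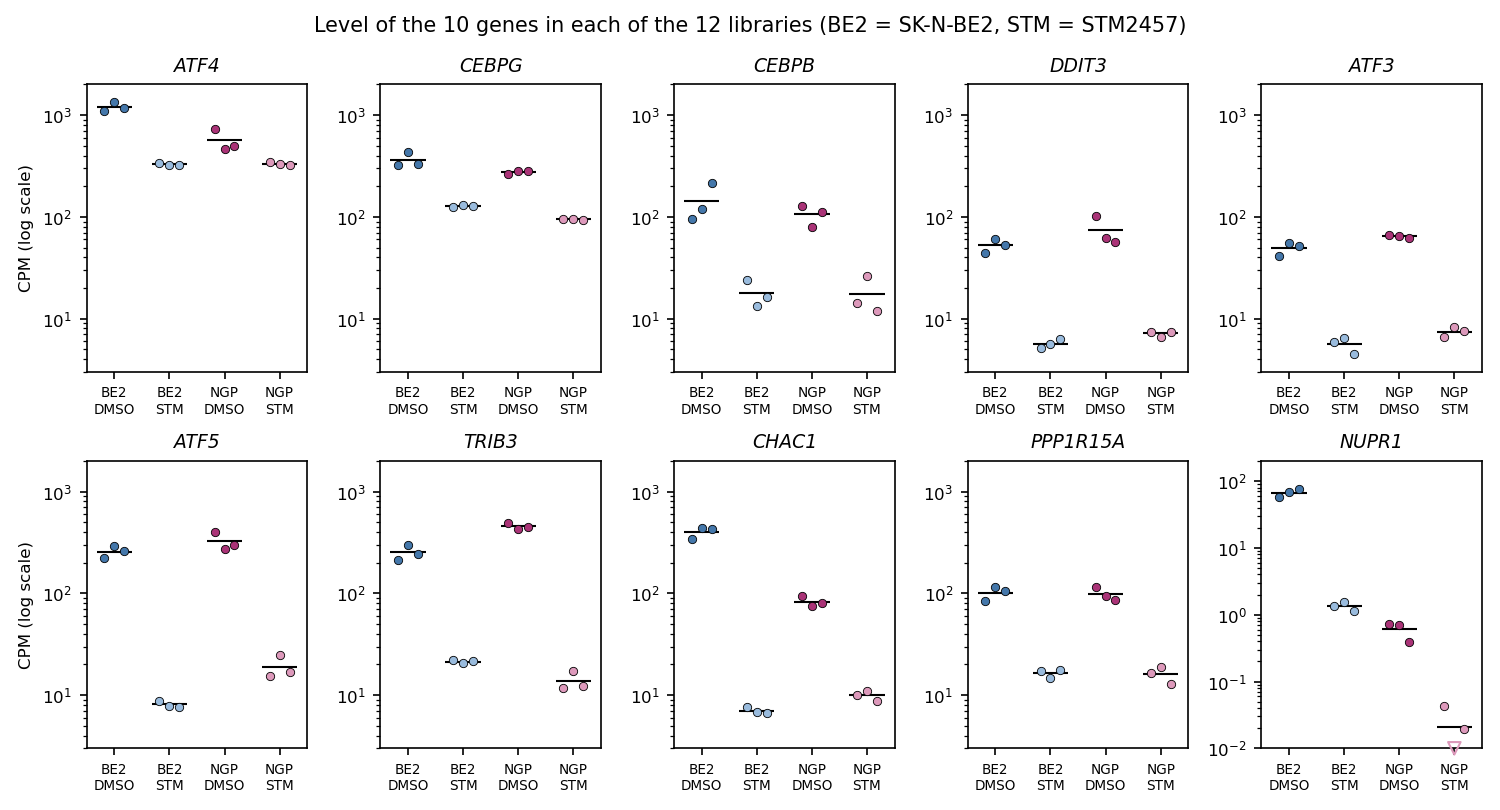
Level of each gene in each library, in CPM on a log scale, with 1 panel per gene, 1 column per group and a bar at the group mean. The treated libraries lie under the DMSO libraries of their line in every panel. The NUPR1 panel has its own axis, and its open triangle stands for 1 library with 0 reads.

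**Figure D3:**
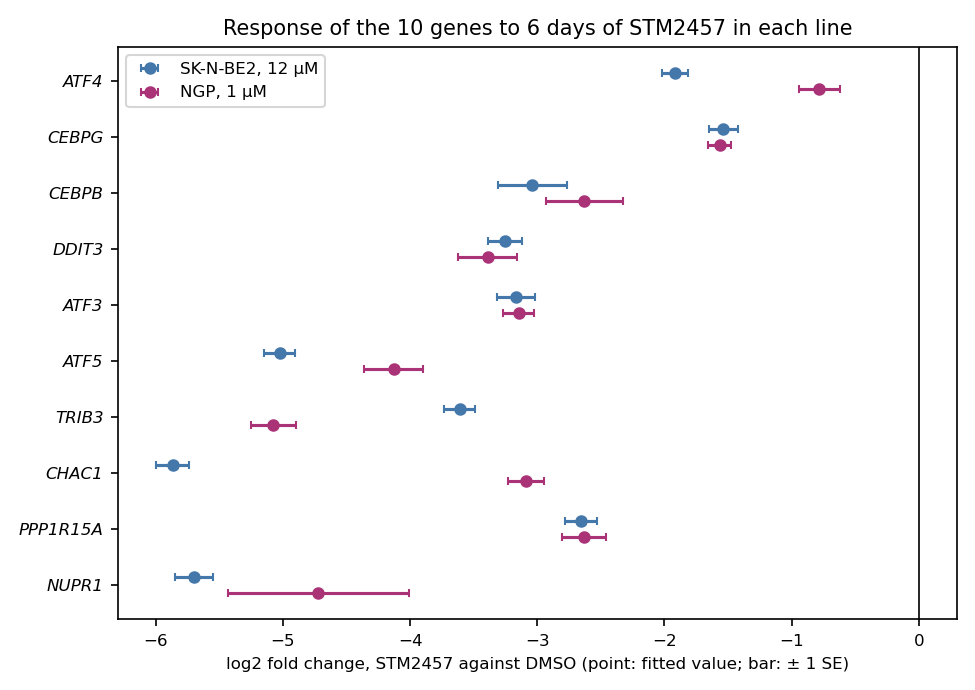
Fitted log2 fold change of each gene (point) with ± 1 SE (bar), STM2457 against DMSO, in SK-N-BE2 at 12 µM and NGP at 1 µM. All points lie left of 0, and the lines stand furthest apart for CHAC1, at -5.87 and -3.09.

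ATF4, the factor at the centre of the set (chr22:39519695-39522685 on GRCh38, plus strand, as are all but DDIT3 and NUPR1), was the most abundant of the 10 and changed less than most. Its level in SK-N-BE2 was 1102, 1356 and 1184 CPM in the 3 DMSO libraries and 339.6, 327 and 324.5 CPM in the 3 STM2457 libraries. In NGP it was 723, 466 and 503 CPM with DMSO and 344, 333 and 324 CPM with STM2457. The first NGP DMSO library stood above the other 2, and all 6 treated libraries of both lines fell in a band of 324 to 344 CPM, in which the lines overlapped. The log2 fold change was -1.92 (SE 0.10) in SK-N-BE2, which left 27.2% of the DMSO mean, and -0.78 (SE 0.16) in NGP, which left 59.1%. The lines were thus apart with DMSO and overlapped with STM2457.

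DDIT3 (chr12:57516588-57521737, minus strand) encodes CHOP, a bZIP protein that is induced by ATF4 and promotes cell death under lasting stress. Its level was 44.5, 61.3 and 52.8 CPM in SK-N-BE2 with DMSO and 5.19, 5.63 and 6.26 CPM with STM2457. In NGP it was 102, 62.0 and 57.2 CPM with DMSO and 7.43, 6.59 and 7.44 CPM with STM2457. Treated libraries sat about an order of magnitude under the controls, and the first NGP DMSO library was far above its 2 partners. The log2 fold change was -3.25 (SE 0.13) in SK-N-BE2 and -3.39 (SE 0.23) in NGP. DDIT3 shares 39.6% of its exon length with protein-coding genes, the largest share being 27.2% with MARS1 on the other strand. Counting used no strand option, so its level is uncertain. MARS1, a tRNA synthetase gene, fell too, with an edgeR log2 fold change of -1.20 in each line (SE 0.09 in SK-N-BE2 and 0.10 in NGP; adjusted p = 1.90e-07 and 6.03e-05), and its part in the DDIT3 values was not tested.

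CEBPG and CEBPB are C/EBP factors that can pair with ATF4. CEBPG (chr19:33373685-33382686), a small member of the family, was at 320.3, 434 and 332 CPM in SK-N-BE2 with DMSO and at 125, 130.4 and 128 CPM with STM2457. NGP libraries held 261, 280.3 and 283 CPM with DMSO and 94.7, 96.0 and 92.8 CPM with STM2457. The treated CEBPG libraries were tight in both lines and did not overlap between them, with SK-N-BE2 higher. About the same share of the DMSO mean was left in both lines, 35.3% in SK-N-BE2 and 34.4% in NGP, with log2 fold changes of -1.54 (SE 0.11) and -1.57 (SE 0.09).

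CEBPB (chr20:50190830-50192668), known for its part in inflammatory and metabolic gene control, was variable between replicates. It was at 95.7, 119 and 217 CPM in SK-N-BE2 with DMSO and at 24.0, 13.4 and 16.4 CPM with STM2457. Levels in NGP were 127, 79.3 and 112 CPM with DMSO and 14.2, 26.2 and 12.0 CPM with STM2457. The highest library was 2.26 times the lowest among the SK-N-BE2 controls and 2.20 times the lowest among treated NGP libraries, the widest spreads of the 10 genes there apart from NUPR1 with its few NGP reads, yet treated and control libraries did not overlap. The log2 fold change was -3.04 (SE 0.27) in SK-N-BE2 and -2.63 (SE 0.30) in NGP. An antisense gene, CEBPB-AS1, overlaps 12.6% of its exon length, so its level is uncertain.

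ATF3 (chr1:212565334-212620777), a bZIP factor that is induced by many kinds of stress and often acts as a repressor, was at 40.8, 55.2 and 51.4 CPM in SK-N-BE2 with DMSO and at 5.95, 6.43 and 4.49 CPM with STM2457. In NGP it was at 66.0, 65.1 and 62.5 CPM with DMSO and at 6.54, 8.22 and 7.49 CPM with STM2457. NGP was higher than SK-N-BE2 in both conditions with no overlap between libraries. The log2 fold changes were -3.17 (SE 0.15) and -3.15 (SE 0.12), which left 11.4% of the DMSO mean in SK-N-BE2 and 11.5% in NGP.

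ATF5 (chr19:49928702-49933935), a close relative of ATF4 that is tied to mitochondrial stress, fell further than the other 5 bZIP members in each line. It was at 222, 289 and 259 CPM in SK-N-BE2 with DMSO and at 8.85, 7.83 and 7.61 CPM with STM2457. NGP libraries held 403, 273 and 301 CPM with DMSO and 15.3, 24.8 and 16.7 CPM with STM2457. The lines overlapped in DMSO, while each treated NGP library was above each treated SK-N-BE2 library. The log2 fold change was -5.03 (SE 0.12) in SK-N-BE2, 32.6-fold lower, and -4.13 (SE 0.23) in NGP, 17.5-fold lower. NUP62 on the other strand overlaps 19.5% of the ATF5 exons, so its level is uncertain.

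TRIB3 (chr20:362835-397559) is a pseudokinase induced by ATF4 and CHOP that binds AKT and ATF4 itself. Its level was 215, 302 and 245 CPM in SK-N-BE2 with DMSO and 22.03, 20.5 and 21.5 CPM with STM2457. In NGP it was 493, 434 and 445 CPM with DMSO and 11.6, 17.4 and 12.4 CPM with STM2457. The order of the lines was turned by treatment, since every NGP library was above every SK-N-BE2 library in DMSO and under it with STM2457. The log2 fold change was -3.61 (SE 0.12) in SK-N-BE2, 12.2-fold lower, and -5.07 (SE 0.18) in NGP, 33.7-fold lower. TRIB3 kept the smallest share of its DMSO mean among the 10 in NGP, 3.02%.

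CHAC1 (chr15:40952962-40956512) encodes a gamma-glutamylcyclotransferase that breaks down glutathione. It was at 341, 435 and 424 CPM in SK-N-BE2 with DMSO and at 7.68, 6.76 and 6.66 CPM with STM2457. The NGP values were 93.9, 74.6 and 80.9 CPM with DMSO and 10.0184, 11.02 and 8.74 CPM with STM2457. The order of the lines was again turned, in the opposite sense to TRIB3, with SK-N-BE2 far above NGP in DMSO and under it with STM2457. The log2 fold change was -5.87 (SE 0.13) in SK-N-BE2, 58.4-fold lower, and -3.09 (SE 0.14) in NGP, 8.52-fold lower. CHAC1 was thus the most reduced of the 10 in SK-N-BE2, keeping 1.76% of its DMSO mean, while 11.9% was left in NGP.

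PPP1R15A (GADD34; chr19:48872421-48876058) is the stress-induced subunit that brings protein phosphatase 1 to eIF2. It was at 83.2, 115 and 107 CPM in SK-N-BE2 with DMSO and at 17.3, 14.7 and 17.7 CPM with STM2457. Values in NGP were 115, 94.4 and 86.9 CPM with DMSO and 16.6, 19.1 and 12.96 CPM with STM2457. The lines overlapped in both conditions, and the log2 fold changes were -2.65 (SE 0.13) and -2.63 (SE 0.17). The constitutive counterpart PPP1R15B, which serves the same phosphatase without stress, is set beside it but is not a fixed reference. Its own edgeR log2 fold change was -0.45 in SK-N-BE2 (SE 0.08, adjusted p = 0.000278) and -0.38 in NGP (SE 0.14, adjusted p = 0.0547, not called). In NGP with DMSO, PPP1R15B varied between libraries, at 180, 243 and 256 CPM. TPM is here a level per total exon length of a gene in the deposited files, not per length of a single transcript. In TPM, the ratio of PPP1R15A to PPP1R15B was 0.531, 0.763 and 0.716 in SK-N-BE2 with DMSO. With STM2457 it was 0.154, 0.126 and 0.154 there. In NGP that ratio was 1.10, 0.667 and 0.582 with DMSO and 0.157, 0.193 and 0.122 with STM2457. The ratio was thus at most 0.193 in every treated library and at least 0.531 in every control.

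NUPR1 (chr16:28532708-28539174, minus strand), a small chromatin-associated stress protein, differed most between the lines. In SK-N-BE2 it was at 57.5, 68.9 and 75.7 CPM with DMSO and at 1.33, 1.52 and 1.14 CPM with STM2457, a log2 fold change of -5.70 (SE 0.15). In NGP it was near the limit of detection, with 36, 36 and 20 reads in the DMSO libraries and 2, 0 and 1 reads in the STM2457 libraries. Summed over the libraries, the NGP control level was 28.9 times the treated one (exact 95% interval 9.59 to 143). That interval covers counting error only and is too narrow, since 2 reads can come from 1 fragment and the spread between libraries is left out. It is no test of the response, since NUPR1 was chosen on this contrast. In NGP the gene passed the filter on low counts through its DMSO libraries alone. A noncoding gene on the same strand shares part of the NUPR1 exons, so the few reads of NGP in particular are uncertain.

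Across the 10 genes, the group with the highest mean level was SK-N-BE2 with DMSO for 6 and NGP with DMSO for 4, which were DDIT3, TRIB3, ATF3 and ATF5. For 9 of the 10, all 6 treated libraries lay under all 6 control libraries whichever line they came from. NUPR1 was the exception, since treated SK-N-BE2 cells at 1.33 ± 0.191 CPM still held more than untreated NGP cells at 0.603 ± 0.185 CPM. The share of all genes with such an order over both lines was not counted. The members were chosen as lower in both lines, so nothing is read from this count. Neighbouring groups did not separate for ATF4, CEBPB and PPP1R15A between the treated lines, nor for DDIT3, ATF5, CEBPB and PPP1R15A between the untreated lines. The replicates leaned together. SK-N-BE2 DMSO replicate 1 was the lowest of its group for all 10 genes, and NGP DMSO replicate 1 was the highest of its group for 9. Over the 9 genes other than NUPR1, the median log2 distance from the group mean was -0.23 in the first of these libraries and 0.23 in the second. How many of all genes share this replicate order was not counted, so the lean is not read as particular to the 10. Leaving out NGP DMSO replicate 1 also changed the calls over all genes in NGP, from 5671 of 13610 tested to 7897 of 13776. Without SK-N-BE2 DMSO replicate 1 those in SK-N-BE2 went from 7665 of 14013 to 7849 of 14196.

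Levels of different genes were compared per length, in TPM. In SK-N-BE2 with DMSO, ATF4 led with 1478 ± 179 TPM (SD, n = 3), followed by CHAC1 with 597 ± 82.4 TPM. CEBPG, ATF5, TRIB3 and CEBPB came next with means of 239 to 273 TPM, and neighbours in that stretch did not separate beyond their spread. NUPR1, at 36.3 ± 4.99 TPM, was last and overlapped ATF3. Its exon length of 5674 bases was the longest of the 10, so its place depends on the length used. In CPM, which is not divided by length, NUPR1 stood at 67.4 in this group, above DDIT3 at 52.9 and ATF3 at 49.1. In NGP with DMSO, ATF4 at 911 ± 117 TPM was followed by TRIB3 at 620 ± 26.7 TPM and ATF5 at 458 ± 43.3 TPM, with no overlap between these 3. CEBPG, CEBPB and DDIT3 followed with neighbours that overlapped, and CHAC1, second in the other line, was seventh at 166 ± 3.04 TPM. With STM2457, ATF4 and CEBPG were first and second in both lines, at 436 ± 24.9 and 105 ± 5.26 TPM in SK-N-BE2 and at 471 ± 9.90 and 82.7 ± 1.27 TPM in NGP. The 6 genes from CEBPB to TRIB3 in treated NGP cells had means between 16.2 and 33.7 TPM, and neighbours overlapped.

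The summed level of the 10 genes was 3414 ± 459 TPM with DMSO and 655 ± 37.0 TPM with STM2457 in SK-N-BE2, and 3098 ± 153 and 688 ± 31.8 TPM in NGP. ATF4 made up 43.4% ± 2.26 of that sum in SK-N-BE2 with DMSO and 66.6% ± 0.627 with STM2457. In NGP it made up 29.3% ± 2.26 with DMSO and 68.5% ± 2.91 with STM2457. What was left of the summed RNA after treatment was thus for the most part ATF4.

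**Figure D4:**
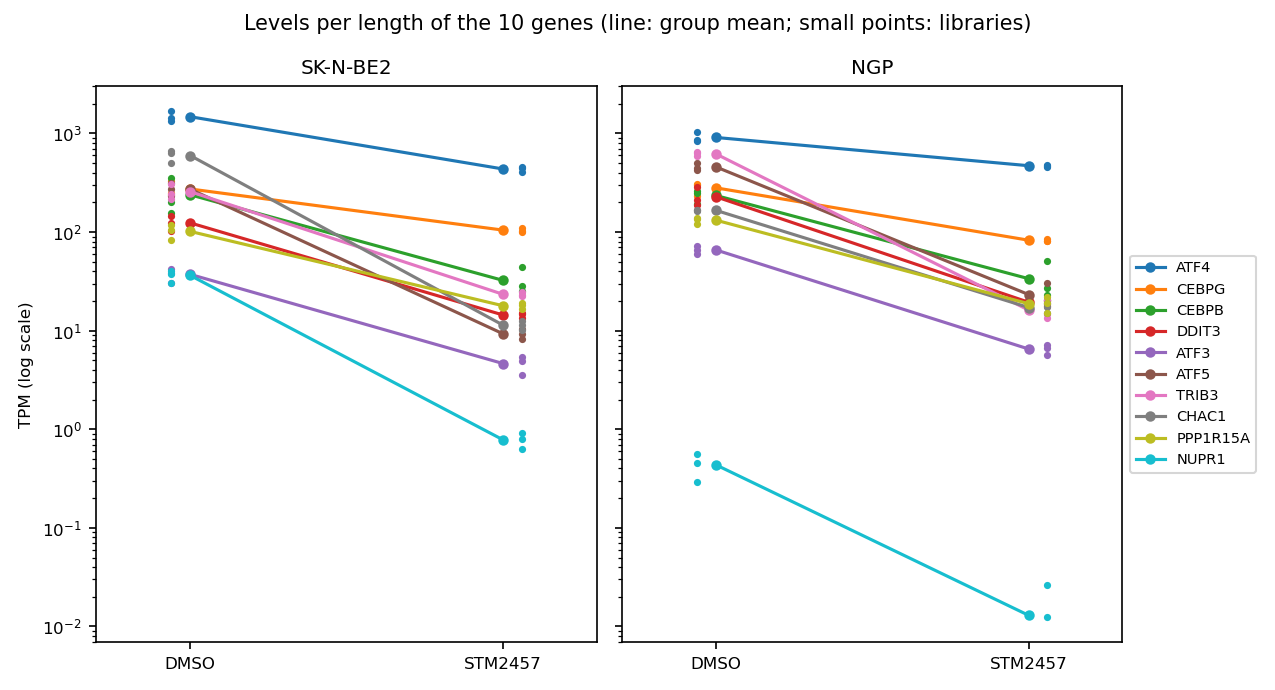
Level per length of the 10 genes, in TPM on a log scale, in SK-N-BE2 (left) and NGP (right); large points joined by a line are the means with DMSO and STM2457, and small points are the libraries. ATF4 is at the top in all 4 groups and CHAC1 drops from second to seventh place in SK-N-BE2; 1 treated NGP library has 0 reads of NUPR1 and cannot be drawn on this scale.

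The untreated lines were compared directly. The choice of genes did not rest on this contrast, but the same DMSO libraries entered the responses that the genes were chosen on. Of the 10 genes, 7 differed between SK-N-BE2 and NGP with DMSO in the edgeR fit of all 12 libraries, 4 higher and 3 lower in SK-N-BE2. Of all genes tested, 35.7% were higher and 35.4% lower in SK-N-BE2, so the share among the members is near the background. NUPR1 had a log2 difference of 6.80 (SE 0.23, adjusted p = 5.06e-12), at 67.4 ± 9.17 against 0.603 ± 0.185 CPM. CHAC1 was higher in SK-N-BE2 by 2.27 (SE 0.12, adjusted p = 7.53e-10) and ATF4 by 1.11 (SE 0.14, adjusted p = 5.43e-06). CEBPG was higher by a smaller margin of 0.40 (SE 0.10, adjusted p = 0.00332). For these 4 genes the libraries of the lines did not overlap.

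TRIB3 was lower in untreated SK-N-BE2, with a log2 difference of -0.85 (SE 0.14, adjusted p = 9.55e-05), with no overlap. ATF3 was lower too, with a log2 difference of -0.39 (SE 0.14, adjusted p = 0.0195), but without SK-N-BE2 DMSO replicate 1 its adjusted p was 0.133. DDIT3 had a log2 difference of -0.48 (SE 0.18, adjusted p = 0.0305) with overlapping libraries. That call was lost without SK-N-BE2 DMSO replicate 1, with an adjusted p of 0.154, and without SK-N-BE2 DMSO replicate 3, with 0.0864. Without NGP DMSO replicate 1, the high library, the log2 difference of DDIT3 shrank to -0.15 (adjusted p = 0.288). The lines were not separated for ATF5 (log2 difference -0.34, SE 0.17, adjusted p = 0.0914), CEBPB (0.44, SE 0.32, adjusted p = 0.234) or PPP1R15A (0.04, SE 0.15, adjusted p = 0.829). The ATF5 difference passed the threshold without NGP DMSO replicate 2 (adjusted p = 0.0369) or NGP STM2457 replicate 2 (adjusted p = 0.0421).

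Because doses differed, the responses of the lines are set side by side and their difference is given as a description. The response of SK-N-BE2 minus that of NGP is given for each gene with its SE and no threshold. It was -2.76 (SE 0.18) for CHAC1, -1.12 (SE 0.19) for ATF4 and -0.88 (SE 0.25) for ATF5, which fell further in SK-N-BE2, and 1.48 (SE 0.21) for TRIB3, which fell further in NGP. For scale, 13.9% of all genes tested were called more negative in SK-N-BE2 and 17.0% more negative in NGP, and nothing is read from this for the members. The other 6 differences lay between -0.96 and 0.15, each smaller than its SE. For ATF3, CEBPG and PPP1R15A they were -0.01 (SE 0.20), 0.04 (SE 0.15) and -0.01 (SE 0.22), and for DDIT3 the difference was 0.15 (SE 0.27). CEBPB at -0.40 (SE 0.46) and NUPR1 at -0.96 (SE 1.15) had the largest errors.

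The rest of the pathway was read from 4 lists, which were drawn up with earlier results of these data known and so are no independent evidence of a direction. Of 40 other target genes of ATF4 or CHOP, 39 fell in SK-N-BE2 and 35 fell in NGP, while none rose in either line (edgeR, adjusted p under 0.05); over all genes 27.8% fell in SK-N-BE2 and 22.2% in NGP. Their median log2 fold change was -1.86 in SK-N-BE2 and -1.38 in NGP. In SK-N-BE2, ALDH18A1, an enzyme of proline synthesis, was the 1 gene not called, at 0.17 (adjusted p = 0.124). In NGP, ALDH18A1, PHGDH, CBS, ERO1A and TNFRSF10B were not called, and PHGDH, the first enzyme of serine synthesis, stood at -0.14 (SE 0.15, adjusted p = 0.506). GDF15, a stress-induced circulating factor, changed by -6.59 on the log2 scale in SK-N-BE2 (SE 0.17, adjusted p = 1.04e-11) and by -6.73 in NGP (SE 0.29, adjusted p = 3.06e-06).

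FGF21, another secreted stress factor, had 2825 reads in the SK-N-BE2 controls and 2 in the treated libraries, a ratio of levels of 1401 (exact 95% interval 387 to 11574, for counting error only and too narrow, since 2 reads can come from 1 fragment), and it fell by 6.42 in NGP (SE 0.23, adjusted p = 1.59e-06). INHBE, a subunit of the activin family, fell by 7.56 in SK-N-BE2 (SE 0.20, adjusted p = 1.31e-11) and by 4.04 in NGP (SE 0.11, adjusted p = 6.81e-07). BBC3, which encodes the cell death protein PUMA, fell by 5.04 in NGP (SE 0.31, adjusted p = 1.50e-05), from 19.4 ± 5.90 to 0.596 ± 0.172 CPM. It fell in SK-N-BE2 too, by 1.16 (SE 0.15, adjusted p = 2.88e-05).

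Upstream of ATF4, of 9 genes for the eIF2 kinases, their partners, the eIF2 alpha subunit and PPP1R15B, 2 rose, 2 fell and 5 were not called in SK-N-BE2, where the median log2 fold change was 0.06; over all genes 26.9% rose and 27.8% fell, so these shares are near the background. GCN1, the activator of the amino acid sensor GCN2, rose by a log2 fold change of 0.63 (SE 0.08, adjusted p = 3.29e-05), OMA1, a mitochondrial protease, fell by 0.92 (SE 0.13, adjusted p = 4.39e-05) and PPP1R15B fell by 0.45 (SE 0.08, adjusted p = 0.000278). In NGP, 2 rose, 1 fell and 6 were not called, against 19.4% and 22.2% of all genes, with a median of 0.24. EIF2S1, the eIF2 alpha subunit, fell by 0.51 (SE 0.08, adjusted p = 0.00196). GCN1 rose by 0.38 (SE 0.09, adjusted p = 0.0107) and EIF2AK4, which encodes GCN2, rose by 0.44 (SE 0.13, adjusted p = 0.0281). These NGP counts depended on single libraries. Without NGP DMSO replicate 1, 5 rose and 4 fell, and without any 1 of NGP DMSO replicate 3 or the 3 NGP STM2457 replicates at most 1 rose. The EIF2AK4 call was lost in each of those last 4 fits, with adjusted p from 0.0664 to 0.0836, and the GCN1 call without NGP STM2457 replicate 1 (adjusted p = 0.0638).

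Of 35 other bZIP factor genes, 32 passed the filter on low counts in SK-N-BE2 and 33 passed it in NGP. In SK-N-BE2, 18 fell, 2 rose and 12 were not called (27.8% of all genes fell and 26.9% rose). In NGP, 15 fell, 3 rose and 15 were not called (22.2% of all genes fell and 19.4% rose). The medians were -0.43 and -0.26. In SK-N-BE2, JDP2, a repressor of the AP-1 family, fell by 2.81 in log2 units (SE 0.17, adjusted p = 4.31e-08), and XBP1, the factor of the unfolded protein response that IRE1 activates, fell by 2.25 (SE 0.11, adjusted p = 6.28e-09). FOS, an immediate early AP-1 gene, fell by 2.02 in SK-N-BE2 (SE 0.09, adjusted p = 3.51e-09) from 72.5 ± 5.22 to 18.3 ± 1.26 CPM. In NGP it rose by a log2 fold change of 3.53 (SE 0.37, adjusted p = 0.000188) from 2.00 ± 1.11 to 23.5 ± 5.91 CPM, so that the treated libraries of the lines came close in level. FOSB rose with it in NGP by 2.44 (SE 0.44, adjusted p = 0.00277) to 1.02 ± 0.370 CPM, and MAFK fell by 3.58 (SE 0.51, adjusted p = 0.000868) to 0.127 ± 0.0873 CPM.

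The chaperones and the ATF6 and XBP1 arms of the unfolded protein response made up a list of 18 genes. In SK-N-BE2, 14 fell, 1 rose and 3 were not called, with a median of -0.78, where 27.8% of all genes fell and 26.9% rose. In NGP, 8 fell, 4 rose and 6 were not called, with a median of -0.07, where 22.2% of all genes fell and 19.4% rose. Without NGP DMSO replicate 1, 7 rose in NGP. HERPUD1, which serves degradation of proteins from the endoplasmic reticulum, changed by -2.87 on the log2 scale in SK-N-BE2 (SE 0.09, adjusted p = 5.59e-11) and by -2.84 in NGP (SE 0.10, adjusted p = 1.48e-06). ERN1, which encodes the sensor IRE1, fell by 2.77 in SK-N-BE2 (SE 0.11, adjusted p = 8.77e-10) and fell by 3.55 in NGP (SE 0.22, adjusted p = 1.50e-05). DNAJB9, a co-chaperone, fell by 2.19 in SK-N-BE2 (SE 0.09, adjusted p = 9.38e-10), and EDEM1, which handles misfolded glycoproteins, fell by 2.18 in NGP (SE 0.15, adjusted p = 2.69e-05).

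**Figure D5:**
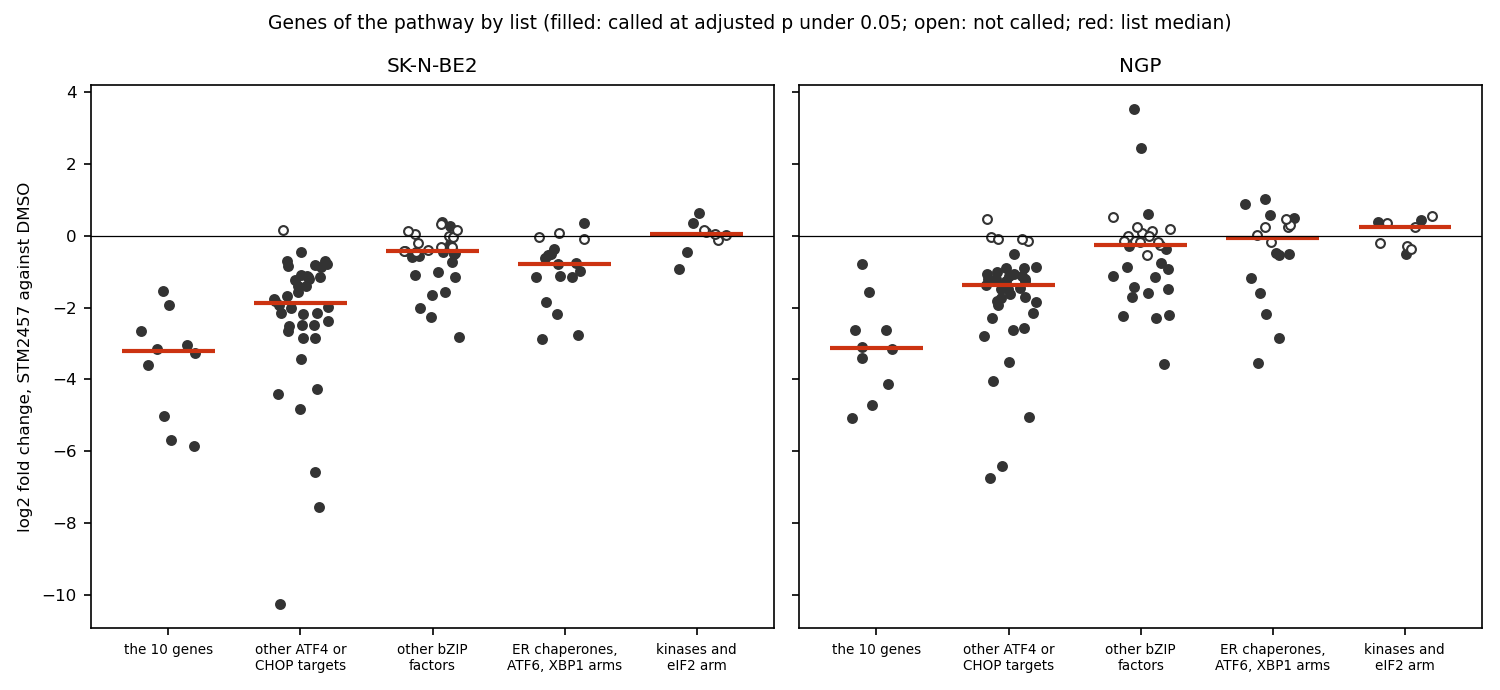
Log2 fold change of each tested gene, STM2457 against DMSO, by list and line, filled where called and open where not, with the list median as a red bar. The 10 genes and the 40 other targets lie mostly under 0 in both lines, and the medians of the kinase and eIF2 list are 0.06 and 0.24.

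Finally, the pattern over the 12 libraries was compared between genes as the root mean square distance of log2 CPM values, each centred on its gene's own mean. Among the 10, DDIT3 and ATF3 were nearest to each other, at a distance of 0.267. CEBPB and PPP1R15A were a mutual pair at 0.358, and ATF4 and CEBPG at 0.367. NUPR1 stood apart, at 2.42 from its nearest member CHAC1. Over 13312 other genes, those close to the average pattern of the 10 included SESN2 (0.303), DDIT4 (0.344), IL20RB (0.463) and KCNJ3 (0.537). SESN2 and DDIT4, both stress-induced inhibitors of mTORC1 signalling, were also on the list of ATF4 targets. The points share lines, treatment and libraries, so these distances describe likeness in these 12 libraries only.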

How the data were processed

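Polyadenylated RNA of 2 lines, each with STM2457 or DMSO, was sequenced in 3 replicates per group, grouped by line, treatment and replicate in the titles. The deposited values are raw read counts per gene. Per the file headers, the authors counted with featureCounts 2.0.5 on exons of protein-coding genes of GENCODE 33, in paired mode and with no strand option; reads rather than pairs were counted, so a fragment can add 2. The submitters' processing notes name FastQC 0.11.5, Trimmomatic 0.36, HISAT2 2.1.0, Subread 1.5.3 and GRCh38. Here edgeR 4.0.16 (R 4.3.3) fitted each line's 6 libraries, and all 12 for comparisons between lines, with a minimum count of 10, TMM scaling, the quasi-likelihood test and Benjamini-Hochberg adjustment over all genes. Scripts were tested on simulated data. CPM values use TMM scaling; TPM values use deposited exon lengths. Changes are relative, as scaling rests on no spike-in. Each standard error is the log2 fold change divided by the root of F. Members and lists were chosen with earlier results of these data known. The naming rule took all members, METTL3 and, per other list and line, the 3 largest called changes with at least 1 CPM and no overlap; MARS1 was named after its overlap with DDIT3 was seen. Alternatives were DESeq2 1.42.0, its size factors, other filters, a joint fit, a replicate block and leaving out each library. Of the 5 genes nearest in pattern and of the markers, 1 each is not reported here.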

Additional observations from a re-analysis of the deposited data

Results flagged for a closer look

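These results differed between the lines by the contrast of the 2 responses (SK-N-BE2 at 12 µM minus NGP at 1 µM, log2 scale); line, dose and sequencing run cannot be told apart. Among the 10 genes the values, which are descriptions since the genes were chosen on their responses, were -1.12 for ATF4, 1.48 for TRIB3, -2.76 for CHAC1 and -0.88 for ATF5.

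The other pathway genes named above were picked for large changes within a line in these same libraries, which favours a difference between the lines. Their adjusted p-values are therefore no independent evidence. Among them, edgeR gave FOS a difference of -5.54 (adjusted p = 3.28e-07). FOS was lower with STM2457 in 3 of 3 SK-N-BE2 libraries and higher in 3 of 3 NGP libraries. FOSB was at -2.89 (adjusted p = 0.00109), FGF21 at -3.81 (adjusted p = 0.00129), INHBE at -3.51 (adjusted p = 3.35e-07) and JDP2 at -1.86 (adjusted p = 9.74e-05). The FGF21 value rests on 2 reads in treated SK-N-BE2 cells. OMA1 was at -1.28 (adjusted p = 0.000150) and DNAJB9 at -1.01 (adjusted p = 5.57e-05). The response was more negative in NGP for BBC3, at 3.90 (adjusted p = 4.16e-06), MAFK, at 3.20 (adjusted p = 0.000539), ERN1, at 0.79 (adjusted p = 0.0219), and EIF2S1, at 0.58 (adjusted p = 0.00128).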

How the results depend on the processing

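The responses of the 10 genes, which are descriptions, were below 0 in all 120 alternative values in SK-N-BE2 and all 119 in NGP, where a filter at a mean of 1 CPM left NUPR1 without a value. The NGP response of ATF4 ranged from -0.90 to -0.57 on the log2 scale. Of 170 values of the difference between responses, 2 moved by more than their error, both without NGP DMSO replicate 1: ATF4 to -1.36 and DDIT3 from 0.15 to -0.17. Between the untreated lines 5 to 8 genes were called; PPP1R15A, which was not called, ranged from -0.042 to 0.20 when single libraries were left out and was below 0 without SK-N-BE2 DMSO replicate 2 (-0.035) or NGP DMSO replicate 3 (-0.042). DDIT3 also lost its call in a fit of DMSO libraries alone (adjusted p = 0.0774). DESeq2 called 5 of the 9 kinase and eIF2 genes higher in NGP, against 2. For these changes the cause was not tested. Deviations of same-numbered libraries correlated between -0.07 and 0.09, and those of different-numbered ones between -0.15 and 0.12. A pairing by replicate number was thus not seen over the genes as a whole, and one limited to some genes was not tested. With the replicate number as a block, the NGP response of ATF4 was -0.76, and the difference of responses was -0.87 (SE 0.29) for ATF5, against -0.88 (SE 0.25) without it. The ATF5 difference of responses thus had a larger SE with the block, and it stays a description without a test. The block changed no call between the untreated lines. Precision rests on 3 libraries per group, and depth limits NUPR1 in NGP, with 0 to 2 reads per treated library.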
